A study of Homo sapiens with 6 samples.

Results

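The clustered protocadherins are the genes of the alpha, beta and gamma protocadherin clusters, which lie side by side on human chromosome 5. They were taken here as every gene symbol on that chromosome starting with PCDHA, PCDHB or PCDHG, whatever its level. Of the 23617 symbols listed for MDA-MB-231 cells, 57 met this rule, 15 in the alpha, 19 in the beta and 23 in the gamma cluster, with 99 of the 43497 listed RefSeq transcripts. Of the 1854 symbols listed for HMLER cells, 0 met it. Libraries were made from 2 mammary cell lines. MDA-MB-231 is an established human breast cancer line, and HMLER is a human mammary line transformed in vitro. Each was left untreated or received decitabine (DAC, 5-aza-2′-deoxycytidine), a cytidine analog that blocks DNA methyltransferases, at 10 µM, and cells were collected after 72 h. Per the study, p53 is mutated in MDA-MB-231 and blocked in HMLER, and the HMLER medium also held EGF, hydrocortisone, insulin and puromycin. There were 2 untreated and 2 DAC-treated HMLER libraries and 1 of each for MDA-MB-231. Per the study, pools of independent RNA extractions were sequenced, and whether the extractions came from separate cultures is not stated. A cell line field of the untreated MDA-MB-231 library gives the number MDA-MB-232, while its title gives MDA-MB-231, which was followed.

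Clustered protocadherins are cadherin-like adhesion proteins of the cell surface, known best from neurons, where each cell uses its own combination of them as an identity tag. Each member of the alpha and gamma clusters has its own promoter and its own large first exon, which encodes the extracellular domains and the membrane span, and this exon is spliced to a few constant exons shared by the cluster. Beta members are single-exon genes and share no constant exon. The promoters are known targets of DNA methylation and of the insulator protein CTCF, and the last members of the alpha and gamma clusters, called C-type, are regulated differently from the others.

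The constant exons decide how far a value of 1 member can be read. In the annotation of hg19, the alpha constant exons lie at chr5:140358534-140358592, chr5:140362060-140362148 and chr5:140389212-140391932, and are 59, 89 and 2721 bases long. All 15 alpha genes use them. The gamma constant exons lie at chr5:140874374-140874432, chr5:140884960-140885048 and chr5:140890514-140892544, with lengths of 59, 89 and 2031 bases, and are used by the 22 protein-coding gamma genes. A read from such an exon cannot be given to 1 member, and Cuffdiff divides these reads by estimation. RefSeq also lists for most alpha and gamma members a short transcript that ends within or just after the first exon. In this text a transcript is called long where it is at least 4000 bases or matches an annotated transcript with several exons, and short otherwise.

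Members also resemble each other outside the constant exons. Over the first 2000 bases from the start codon, the share of words of 50 bases that also occur in another clustered protocadherin was at the median 11.4% in alpha (range 0 to 42.1%), 21.3% in beta (0 to 55.4%) and 6.33% in gamma (0 to 23.6%). PCDHB8 had the highest share, 55.4%, followed by PCDHB13 with 51.7%, and 39.3% of the words of each occur in the other. PCDHB9 and PCDHB10 had 32.3% of their words in common, as did PCDHA7 and PCDHA9 with 34.9% and PCDHA6 and PCDHA8 with 31.8%. The C-type members and PCDHB1 shared none. Where reads fall on such stretches, the values of these pairs are uncertain.

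**Figure D1:**
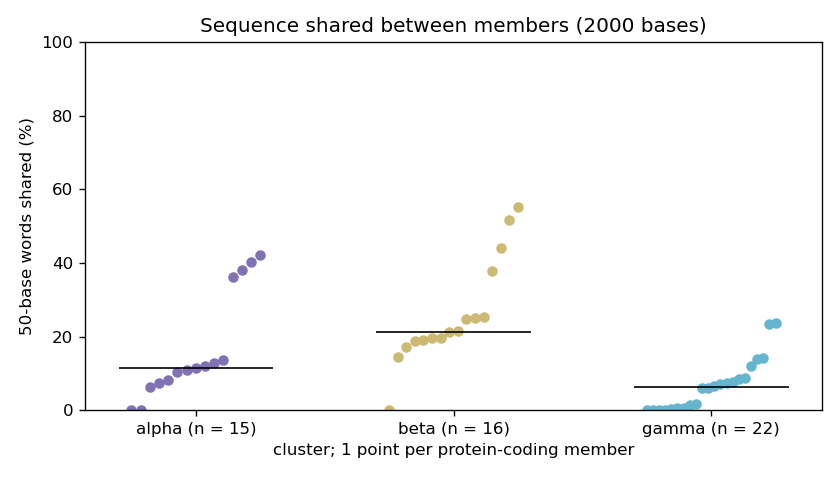
Share of 50-base words of each protein-coding member (y axis, percent) found in another clustered protocadherin, by cluster (x axis), over the first 2000 bases from the start codon, with black lines at the medians. The beta cluster has the highest median, 21.3%, and its 2 highest points are PCDHB8 and PCDHB13.

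Upstream of their start codons the members carry a known short promoter element around the bases CGCT. Windows of 26 bases around it, read from GRCh37, the assembly of hg19, are shown for members whose values are given in detail. They are all on the plus strand, with the CGCT core in capitals. The window of PCDHB16 lies inside the deposited transcript, which starts further upstream, and that of PCDHB8 spans the start of its transcript.
PCDHA4, chr5:140186566-140186591: gagccacatgatgtCGCTctttacca
PCDHB2, chr5:140474131-140474156: gagacgcggggtggCGCTgcagcctt
PCDHB3, chr5:140479979-140480004: cgaacgcatggtggCGCTgttgacta
PCDHB8, chr5:140557360-140557385: aggacccgtggtggCGCTgcaggata
PCDHB16, chr5:140561887-140561912: agaacgcgtggtggCGCTgcaggtta
PCDHB13, chr5:140593439-140593464: aggacgcgtggtggCGCTgcaggata
PCDHGB2, chr5:140739490-140739515: aaacctctgagcgtCGCTgttggtca
PCDHGA10, chr5:140792500-140792525: aggactctgagcgcCGCTgttcacct
PCDHGA12, chr5:140810095-140810120: aggactctgagcgcCGCTgttcacca
PCDHGC3, chr5:140855449-140855474: gggactctgtgtgcCGCTgtcggcca

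Longer forms of this element differed by cluster. Within 400 bases upstream of the start codon, on the sense strand, ATGTCGCT was found in 10 of 15 alpha members and in 0.13% of the 19936 windows of the same length upstream of all annotated coding genes (0.231% on either strand). GTGGCGCT was found in 14 of 16 beta members, the exceptions being PCDHB1 and PCDHB6, and in 0.843% of all windows (1.5% on either strand). Of the 22 gamma members, 12 held GCCGCTGT and 6 held GTCGCTGT, against 1.06% and 0.482% of all windows (1.86% and 0.818% on either strand). GTCGCTGT also occurred in 6 alpha members, where it overlaps ATGTCGCT. CGCT alone was found in 54.7% of all windows on the sense strand and 69.2% on either. The core lay at a median of -190.5 bases from the start codon in alpha, -240.5 in beta and -229.5 in gamma. The same 400 bases held at the median 9 CpG in alpha, 11.5 in beta and 11.5 in gamma members, against 12 in all windows. PCDHAC1 with 43 and PCDHAC2 with 34 CpG stood highest. DNA methylation of these windows was not analysed here, and a match of letters is not shown to be a site in use.

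In MDA-MB-231 the clusters were expressed at unequal, mostly low levels. FPKM is the number of sequenced fragments scaled by transcript length and by the number of mapped fragments, so levels can be compared between transcripts. Summed over its transcripts, the gamma cluster had 18.9 FPKM in the untreated library, the beta cluster 13.4 and the alpha cluster 0.483. After DAC the sums were 16.5, 7.85 and 0.892 FPKM. Only 9 of the 57 symbols reached 1 FPKM in at least 1 library with their most abundant transcript, and 21 stayed under 0.1 FPKM in both. The 10 members with the highest summed levels were 6 gamma, 4 beta and 0 alpha genes in each library. The median of all 23617 symbols was 0.673 FPKM without and 1.18 FPKM with DAC. In such bulk RNA, fewer expressing cells and less RNA per cell cannot be told apart.

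**Figure D2:**
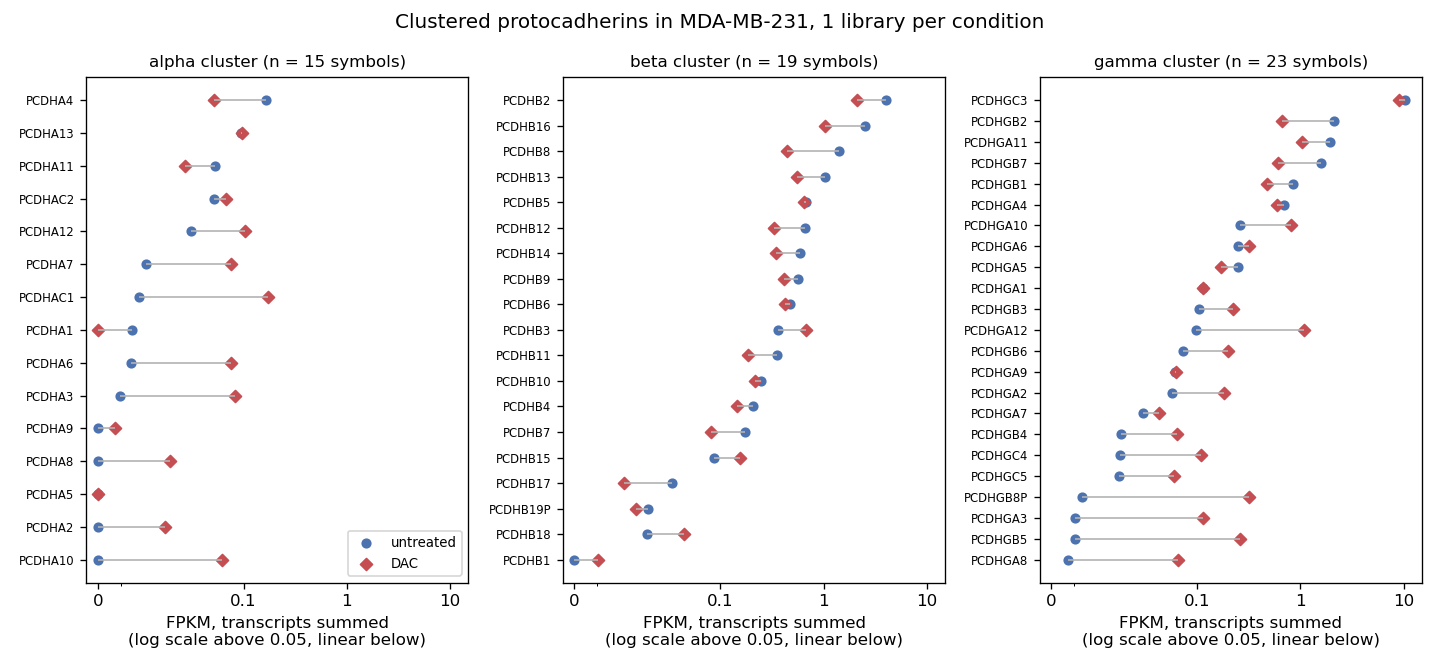
FPKM of each member summed over its transcripts (x axis, logarithmic above 0.05 and linear below) in the untreated (blue circles) and the DAC-treated (red diamonds) MDA-MB-231 library, 1 panel per cluster, members ordered by the untreated level. No bars are drawn, since each point is 1 library. In the beta panel 15 of 19 members lie lower after DAC, PCDHB17 and PCDHB19P among them on at most 6 reads. In the gamma panel PCDHGC3 stands above the rest in both libraries.

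The size of the difference can be read against counting error but not against replicates. With 1 library per condition there is no spread between replicates and no p-value. The FPKM could be turned back into whole reads, taking as effective length the transcript length minus 205 bases. All 754 low values of the untreated and all 792 of the DAC-treated library used to find this lay within 0.1 of a whole read, as did the 38 values of the beta members. This gave reads for each member. Read ratios were multiplied by 1.01, the FPKM worth of 1 read with DAC over that without, and were given 95% exact binomial intervals (Clopper-Pearson). The intervals cover counting error only and compare these libraries, not the conditions. Between the libraries, the median DAC/untreated ratio of the 11057 symbols that reached 1 FPKM in each was 0.908, or -0.14 on the log2 scale.

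The 3 cluster totals moved apart. The beta cluster had 1806 reads without and 1027 with DAC, a scaled ratio of 0.572 (95% interval 0.530 to 0.618), which lies below both 1 and the median ratio. The gamma cluster had 2571 and 2248 reads, a ratio of 0.880 (0.831 to 0.932), an interval that lies below 1 but holds the median ratio. The alpha cluster had only 64 and 111 reads, a ratio of 1.75 (1.27 to 2.41), above 1. These 3 intervals do not overlap each other. On the FPKM scale the ratios were 0.585, 0.870 and 1.85. The alpha figure rests on few reads: without PCDHA4, the member with the largest alpha level, its FPKM ratio was 2.64.

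**Figure D3:**
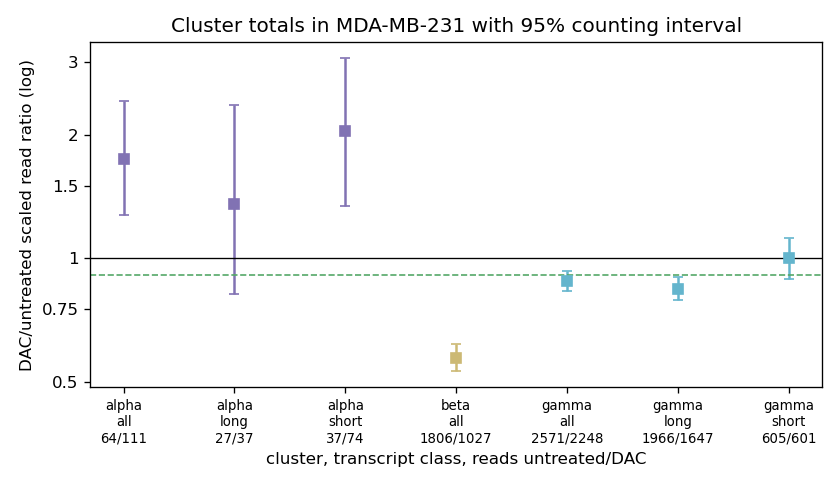
DAC/untreated ratio of reads in MDA-MB-231, scaled by the worth of 1 read in each library (y axis, log scale) for each cluster and, in alpha and gamma, for its long and short transcripts (x axis, with the reads of both libraries). Squares are ratios, bars are 95% counting intervals, the solid line is 1 and the dashed line the median ratio of 0.908. The beta square, at 0.572, is the lowest.

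For calls on single members, a member was counted as higher or lower where log2 of DAC over untreated, with 0.1 FPKM added to both, passed 1 or -1 for its most abundant transcript. By this rule 6 of 57 members were higher and 5 lower after DAC, while 11.9% of all symbols were higher and 3.39% lower. Among the 6428 symbols with a mean of 0.1 to 5 FPKM, nearer to the level of the beta and gamma members, 33.3% were higher and 5.26% lower. The higher members were PCDHAC1 in alpha and PCDHGA10, PCDHGA12, PCDHGB5, PCDHGB8P and PCDHGC4 in gamma. The lower ones were PCDHB8 and PCDHB16 in beta and PCDHGA11, PCDHGB2 and PCDHGB7 in gamma. Cuffdiff's own bounds of each value overlapped between the libraries for each of the 57. The share of all symbols with overlapping bounds was not computed, so this count has no background. With all transcripts of a symbol summed, 5 members were higher and 4 lower. The median log2 change was 0.33 in alpha, -0.32 in beta, 0.55 in gamma and 0.089 over the 57. It was 0 over all symbols and 0.45 over those with a mean of 0.1 to 5 FPKM. A filter of at least 1 FPKM in a library kept 9 members, 5 of them gamma. The gamma median was then -1.53 and that of all 9 was -1.21, so both turned with this filter. PCDHGA11, PCDHGB2, PCDHGB7, PCDHB8 and PCDHB13 passed only by their untreated level, and PCDHGA12 only by its level with DAC. The filter thus picks members by the library where they are high, so these medians show no direction.

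In the beta cluster, whose members share no constant exon, 15 of 19 members had a lower level after DAC. The counting interval lay below 1 for only 8 of 19, and PCDHB17 and PCDHB19P count as lower on at most 6 reads. The share of all symbols with any lower level was not computed. Of those with a mean of 0.1 to 5 FPKM, 32.0% had a log2 change below 0. PCDHB2, the most abundant beta member, had 4.02 FPKM (432 reads) in the untreated and 2.11 FPKM (226 reads) in the DAC-treated library. Its ratio was 0.526 (0.446 to 0.620). PCDHB16 had 2.50 FPKM (492 reads) and 1.02 FPKM (200 reads), a ratio of 0.409 (0.345 to 0.483). These 2 genes made up 29.9% and 18.6% of the untreated beta total, and without them the FPKM ratio of the cluster was 0.682.

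PCDHB8, which lies beside PCDHB16, had the lowest ratio among beta members with more than 10 reads in each library. It went from 1.39 FPKM (149 reads) to 0.443 FPKM (47 reads), a ratio of 0.317 (0.224 to 0.443). PCDHB13, with which it shares much of its sequence, went from 1.04 FPKM (145 reads) to 0.547 FPKM (76 reads), a ratio of 0.527 (0.394 to 0.701). Both were lower after DAC.

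PCDHB3 differed from its neighbours. It had 0.363 FPKM (46 reads) in the untreated and 0.676 FPKM (85 reads) in the DAC-treated library, a ratio of 1.86 (1.28 to 2.72), and was the only beta member with an interval above 1. PCDHB2, next to it on the chromosome, had the ratio of 0.526 given above, and the 2 intervals do not overlap. PCDHB4, on its other side, had 30 and 21 reads and a ratio of 0.704 (0.383 to 1.27), an interval that reaches just short of that of PCDHB3. PCDHB5, with 77 and 74 reads, had a ratio of 0.967 (0.693 to 1.35), and PCDHB6, with 57 and 51 reads, a ratio of 0.900 (0.605 to 1.34). The windows printed above hold the same GTGGCGCT in PCDHB2, PCDHB3, PCDHB8, PCDHB13 and PCDHB16, whose ratios lay on both sides of 1, and PCDHB6 has none.

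The counting interval lay below 1 for 8 of 19 beta members (PCDHB2, PCDHB7, PCDHB8, PCDHB11, PCDHB12, PCDHB13, PCDHB14 and PCDHB16), above 1 for PCDHB3 and held 1 for 10. The comparison set was 5331 symbols with a single transcript, longer than 2000 bases, alone at its locus and on a main chromosome sequence. Its values were also marked OK by Cuffdiff in both libraries, with reads in at least 1. Among these symbols the interval lay below 1 for 34.8% and above 1 for 35.1%. Among the 1853 of them with a mean of 0.1 to 5 FPKM, 21.3% lay below and 54.1% above. Set against the median ratio in place of 1, 7 beta members lay below and 1 above. The lower members PCDHB12, with 90 and 45 reads, and PCDHB14, with 65 and 38 reads, had ratios of 0.503 (0.344 to 0.727) and 0.588 (0.384 to 0.891). PCDHB11 had 46 and 24 reads, a ratio of 0.525 (0.307 to 0.878). PCDHB9, the next in size, had 96 and 70 reads and a ratio of 0.734 (0.531 to 1.01), which just reaches 1.

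**Figure D4:**
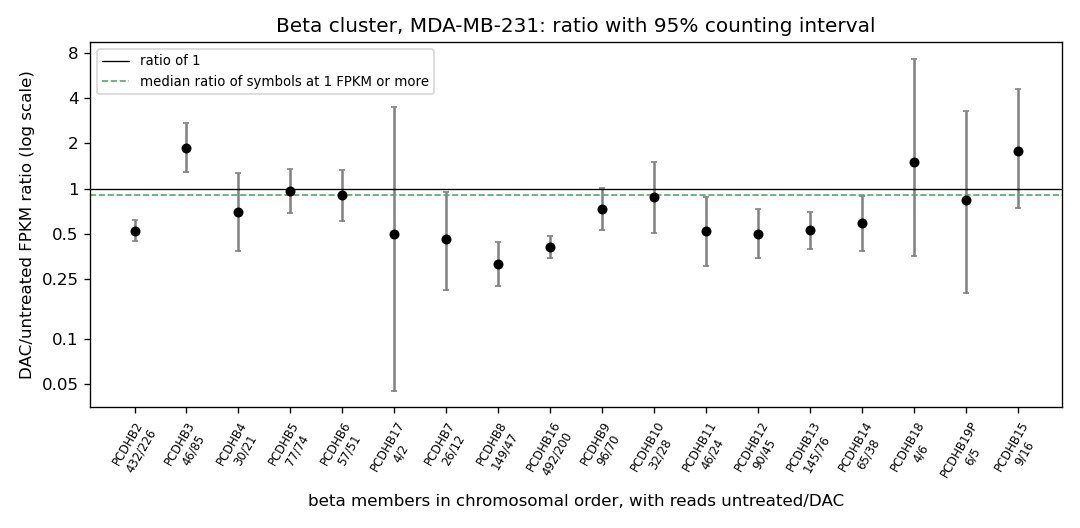
DAC/untreated FPKM ratio (y axis, log scale) of the 18 beta members with reads in the untreated MDA-MB-231 library, in chromosomal order (x axis, with reads untreated/DAC under each name). Points are ratios and bars 95% counting intervals. PCDHB3 is the only point whose bar lies above 1, while PCDHB8 and PCDHB16 lie lowest with short bars.

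At the low end, PCDHB1, the first beta gene and one without GTGGCGCT in its upstream window, had 0 reads without and 1 read with DAC. The pseudogenes PCDHB17, PCDHB18 and PCDHB19P had between 2 and 6 reads in each library, and PCDHB15 had 9 and 16. For these 5 no difference was detectable at this depth. Of the 15 beta members with a mean of at least 0.1 FPKM, 13 had a log2 change below 0, with a median of -0.60. Among the 6428 symbols with a mean of 0.1 to 5 FPKM, 32.0% had a log2 change below 0 and the median was 0.45. Across these 15 members the log2 ratio correlated with the number of CpG upstream at 0.26 (Pearson's r) and 0.36 (Spearman's rho), and with the share of common 50-base words at -0.35 and -0.30. With the untreated level these values were -0.57 and -0.43. The members come from the same 2 libraries and the untreated value enters the last pair on both sides, so these are descriptions only.

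The gamma cluster kept most of its reads while its members moved in both directions. PCDHGC3, a C-type member expressed in many tissues, had a summed 10.3 FPKM in the untreated and 8.91 FPKM in the DAC-treated library, and made up 54.5% and 54.1% of the cluster. Its transcript NM_002588, which was called neither higher nor lower, had 5.22 FPKM (Cuffdiff bounds 1.29 to 9.14) in the untreated and 5.56 FPKM (1.68 to 9.43) in the DAC-treated library, while its transcript NM_032403 had 5.10 and 3.36 FPKM. NM_032403 is 2326 bases long, against 59, 89 and 2031 bases for the gamma constant exons, so it can consist mostly of shared sequence. Reads from such sequence cannot be given to 1 member, so the level and share of PCDHGC3 are uncertain. The other C-type gamma genes were far lower, PCDHGC4 with 0.0298 and 0.108 FPKM and PCDHGC5 with 0.0296 and 0.0592 FPKM. The 3 C-type genes summed to 10.4 and 9.08 FPKM.

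The remaining gamma genes fall into an A and a B type by sequence. The 12 A-type genes summed to 3.76 FPKM in the untreated and 4.57 FPKM in the DAC-treated library. The 8 B-type symbols, with the pseudogene PCDHGB8P, summed to 4.79 and 2.82 FPKM. Of the 23 gamma symbols, 16 had a higher summed level after DAC and 7 a lower one. Among the 6428 symbols with a mean of 0.1 to 5 FPKM, 32.0% were lower by their most abundant transcript. This background is a rough one, since the gamma counts use sums and only 18 of the 23 symbols reached 0.1 FPKM in a library. By the call on single members, 5 of 23 (21.7%) were higher and 3 (13.0%) lower. Of the symbols with a mean of 0.1 to 5 FPKM, 33.3% were called higher and 5.26% lower. Although more gamma members were higher, the cluster total was lower, as the lower members were among the more abundant.

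Those that were lower had the highest untreated levels after PCDHGC3. PCDHGB2 had 2.11 FPKM in the untreated and 0.666 FPKM in the DAC-treated library, from its short transcript alone. PCDHGA11 had a summed 1.93 and 1.04 FPKM, and its most abundant transcript, NM_018914, went from 1.86 to 0.449 FPKM, so that it was called lower by that transcript and not by its sum. PCDHGB7 had a summed 1.60 and 0.610 FPKM. Its short transcript NM_032101 had 1.44 FPKM and then was listed at 0, while its long transcript NM_018927 had 0.156 and then 0.610 FPKM.

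Higher members started from low levels. PCDHGA12, the last A-type gene, had 0.0966 FPKM in the untreated and 1.07 FPKM in the DAC-treated library, both from its short transcript, or 10 and 110 reads. It was the only member called higher that reached 1 FPKM. PCDHGA10 had a summed 0.259 and 0.804 FPKM, which came from its long transcript NM_018913 (0.241 FPKM, then listed at 0) in the untreated and from its short transcript NM_032090 (0.0181 and 0.804 FPKM) in the DAC-treated library. PCDHGB8P, a pseudogene between PCDHGA11 and PCDHGA12, had 0.0133 and 0.320 FPKM, or 1 and 24 reads. PCDHGB5 had a summed 0.0101 and 0.259 FPKM. On the chromosome, PCDHGA10 is followed by PCDHGB7, PCDHGA11, PCDHGB8P and PCDHGA12, so that members called higher and lower lie next to each other.

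The division between long and short transcripts of a gene is an estimate where both hold the same first exon. For 6 gamma and 2 alpha members, the most abundant transcript was a different one in each library. Summed over the cluster, the long gamma transcripts had a read ratio of 0.843 (0.789 to 0.901), and the short ones 0.9997 (0.892 to 1.12). On the FPKM scale these ratios were 0.807 and 1.004. In alpha, long transcripts had a read ratio of 1.36 (0.817 to 2.36) and short ones 2.04 (1.34 to 3.07). The intervals of the long and short alpha transcripts overlap widely. The classes rest mainly on length and do not show by themselves which transcripts hold the constant exons.

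Alpha members were near the limit of detection. By their most abundant transcript, 12 of 15 were under 0.1 FPKM in both libraries, 5 were listed at 0 without and 2 with DAC by their sum, and PCDHA5 was at 0 in both. PCDHA4, the highest in the untreated library, had 0.164 FPKM (16 reads) and then 0.0515 FPKM (5 reads). PCDHAC1, the C-type gene with the most CpG upstream, had a summed 0.0181 FPKM and then 0.172 FPKM, from a long transcript without DAC and from its short transcript, NM_031882, with it (21 reads). PCDHA13 had 0.0947 and 0.0956 FPKM, and PCDHAC2 0.0521 and 0.0674 FPKM. In all, 11 alpha members had a higher summed level after DAC and 3 a lower one. The share of all symbols at so low a level that were higher was not computed, so these counts have no background. The 13 members that are not C-type summed to 0.412 and 0.653 FPKM, and both C-type ones to 0.0702 and 0.240 FPKM.

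In HMLER, no clustered protocadherin is in the deposited table. That table lists only transcripts that rose, each with a DAC/untreated ratio of at least 2.001 and at least 1.003 FPKM after DAC, and it has 1 merged value per condition. A member that was lower, level or under 1 FPKM after DAC would not be listed, so the absence gives no level. Of all symbols listed for MDA-MB-231, 7.85% are in the HMLER table, and of those with a mean of 0.1 to 5 FPKM 14.1%. In MDA-MB-231 itself, 4 members were at 1 FPKM or more after DAC by their most abundant transcript, and 1 of these, PCDHGA12, was called higher.

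Other genes of the family and of the region were read by the same call. Of 12 non-clustered protocadherins, which are encoded by single genes outside the clusters, 3 passed it upwards and 1 downwards, with a median log2 change of 0.54. Of symbols with a mean of 0.1 to 5 FPKM, 33.3% passed upwards and 5.26% downwards, so that this count is near the background. PCDH1 went from 0.282 to 1.24 FPKM, PCDH12 from 0.0660 to 0.394 FPKM, PCDH17 from 0.0120 to 0.169 FPKM and PCDH15 from 0.705 to 0.150 FPKM. PCDH1 was also listed in HMLER, with 0.427 FPKM before and 3.82 FPKM after DAC, and PCDH9 with 0.659 and 1.79 FPKM.

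Of 18 genes beside or between the clusters, 3 were higher and 0 lower, near the 11.9% and 3.39% of all symbols, with a median log2 change of 0.0046. The higher ones were VTRNA1-2, a short vault RNA listed at 0 and then at 47.2 FPKM (Cuffdiff bounds 0 to 163), CD14 (0.0347 and 0.512 FPKM) and RELL2 (1.44 and 3.36 FPKM). VTRNA1-3, of the same length as VTRNA1-2, was at 46.9 and 47.2 FPKM, with DAC the same value as VTRNA1-2. FPKM is scaled by length, so very few reads can give such a value for a short RNA. Reads were not recovered for these genes, and the call of VTRNA1-2 may rest on very few. TAF7, a gene between the beta and gamma clusters that was picked after its values were seen, had 99.4 FPKM in the untreated and 83.9 FPKM in the DAC-treated library.

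Of 15 regulators of the clusters, which include CTCF, cohesin and DNA methyltransferases, 2 were higher and 0 lower, near the 11.9% and 3.39% of all symbols, with a median log2 change of -0.23. DNMT3A, a de novo methyltransferase, had 1.77 and 4.52 FPKM, and DNMT3B 2.30 and 5.39 FPKM. The cohesin subunits STAG1 (17.5 and 9.53 FPKM) and RAD21 (232 and 140 FPKM) did not pass the threshold. Of 4 kinases linked to protocadherin tails, 1 was higher and 0 lower, namely PTK2B, from 1.13e-05 to 0.239 FPKM. RET had 0 and 0.0774 FPKM, FYN 10.8 and 16.8 FPKM, and PTK2, the most abundant, 65.0 and 45.9 FPKM.

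Of 9 cadherins with CDH symbols, which are adhesion proteins, 5 were higher and 1 lower, with a median log2 change of 1.30. The shares were 11.9% and 3.39% of all symbols, and 33.3% and 5.26% of those with a mean of 0.1 to 5 FPKM. CDH4 went from 24.7 FPKM (Cuffdiff bounds 12.3 to 37.1) to 1.21 FPKM (0.114 to 2.32), and its bounds did not overlap. CDH13 had 0.239 and 2.76 FPKM, CDH15 0.0353 and 0.871 FPKM and CDH2 0.0902 and 1.06 FPKM.

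Cell type markers were read beside these values. The shares called higher and lower were 11.9% and 3.39% of all symbols. Of symbols with a mean of 0.1 to 5 FPKM they were 33.3% and 5.26%. Of 5 mesenchymal markers 3 were higher and 1 lower after DAC. FN1 went from 29.1 to 86.1 FPKM, CDH2 from 0.0902 to 1.06 FPKM and SPARC from 2.09 to 11.3 FPKM, the last with bounds that did not overlap. VIM went from 3066 FPKM (Cuffdiff bounds 0 to 10419) to 1134 FPKM and made up nearly the whole of the sums, 3112 and 1241 FPKM. Of 6 luminal epithelial markers 2 were higher and 0 lower, with sums of 251 and 252 FPKM, GATA3 going from 0.0840 to 1.71 FPKM, and CDH1 and ESR1 were listed at 0 in the untreated library. Of 3 basal markers 0 were higher and 0 lower, with sums of 0.0112 and 0.141 FPKM. Of 10 neuronal markers 2 were higher and 1 lower, with sums of 112 and 145 FPKM that come mostly from TUBB3, and 4 were at 0 in the untreated library. SYP went from 0.168 to 2.59 FPKM and RBFOX3 from 1.59 to 0.305 FPKM. The part of any change in cell state or in RNA amount per cell in the protocadherin values was not tested.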

How the data were processed

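RNA-seq libraries (polyA RNA, TruSeq kit) of untreated and DAC-treated cells were used. Per the study's methods, reads were aligned by the authors with TopHat2 (hg19), and Cuffdiff, run on Galaxy, gave FPKM for RefSeq transcripts. Versions are not given in the sources used here. The deposited FPKM, with Cuffdiff's lower and upper bounds for MDA-MB-231, were used as they stand. Fold change, log2 fold change, p-value and q-value columns hold the authors' own comparisons and were not used.

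A symbol was represented by the transcript whose FPKM, added over both libraries, was largest. Log2 changes were computed with 0.1 FPKM added, which understates changes of low genes, and calls used a threshold of 2-fold. No filter on low values was set. Reads were recovered from FPKM with an effective length of the length minus 205 bases. Reads of alpha and gamma transcripts are Cuffdiff's assignments and need not be whole. Intervals and calls were tested on simulated data. Shared words, upstream windows and constant exons came from GRCh37 and the GENCODE annotation lifted to it. Depth beyond these reads is unknown for HMLER.

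The members and gene lists were chosen with earlier results of these data known. Values were given for the 3 most abundant members of each cluster, the 3 with the largest changes past the threshold in each direction, the C-type members and at most 4 genes with the largest changes of each list other than the markers, and other members where a comparison needed them. Lists were non-clustered protocadherins, neighbours, regulators, tail-binding kinases, cadherins with CDH symbols and cell type markers. Alternatives were other pseudocounts, filters, transcript choices, scaling and members. Computation used scipy 1.17.1, pandas 2.3.3 and numpy 2.4.6 under Python 3.11.15, and plots matplotlib 3.10.9.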

Additional observations from a re-analysis of the deposited data

How the results depend on the processing

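Of 133 alternative values, 89 stayed close to the value given, and 44 moved, of which 3 changed sign. Low values made the counts depend on the pseudocount. With 0.01 FPKM added, 21 members were higher and 8 lower (alpha 8 and 2, beta 1 higher, gamma 12 higher), medians were 1.15 in alpha, -0.48 in beta and 1.01 in gamma, and 4850 symbols in all were higher. With 1 FPKM added, 0 members were higher and 1 lower (alpha 0 higher, beta 0 lower, gamma 0 higher and 1 lower), medians were 0.037, -0.075 and 0.077, and 892 symbols were higher and 486 lower. Asking for 1 FPKM in at least 1 library left 1 higher member, in gamma (alpha 0), medians of -1.21 over all members, -1.05 in beta and -1.53 in gamma, and 1364 higher symbols. Asking for 0.1 FPKM gave medians of -0.083 over all, 0.53 in alpha, -0.60 in beta and 0.45 in gamma. The median over all members thus changed sign with either filter, and that of gamma with the filter at 1 FPKM. That filter kept 9 members, 5 of them gamma, several only by their untreated level, so its medians show no direction. Summing transcripts gave a gamma median of 0.30. Asking for bounds that do not overlap left 0 members higher and 0 lower, in each cluster and in all. The share of all symbols left by this filter was not computed.

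The summed FPKM ratio of alpha was 2.64 without PCDHA4. That of beta was 0.644 after division by the median ratio and 0.682 without PCDHB2 and PCDHB16, an alternative chosen after seeing the data, as were leaving out the 4 pseudogenes and setting beta intervals against the median ratio. That of gamma was 0.807 for long transcripts and 0.958 after division by the median ratio. No paired analysis was possible because HMLER values were merged over libraries and MDA-MB-231 was sequenced once for each condition, so leaving out a replicate was not possible either. Depth limits the alpha cluster most, with 64 and 111 reads in all.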
